A study of Mus musculus with 17 samples.

Results

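Transcripts of 9 genes of epithelial cell junctions were followed in mouse uterus after estradiol (E2), in wild-type (WT) animals and in animals labelled as Egr1 knockout (KO). Egr1 encodes an early growth response transcription factor. The genes were the claudins Cldn1, Cldn3, Cldn4 and Cldn7, the tight junction protein gene Ocln, the scaffold gene Tjp1, the cadherins Cdh1 and Cdh16, and the gap junction gene Gjb2. They were taken by symbol, with earlier results of these data known, so their counts beside the shares of all genes are a description only. Each is represented by the brightest array probe that the platform annotation assigns to it. All 9 of 9 passed the filter on dim probes, out of 14737 genes tested and 19057 genes with a named probe. Total RNA of uterine tissue was hybridised to 17 Illumina bead arrays, 9 labelled WT and 8 labelled KO. Each genotype has a 0 h group and groups at 3 h, 6 h and 24 h, with 3 arrays for WT at 3 h and 2 arrays for each of the other 7 groups. The mouse strain, age, any ovariectomy, the E2 dose, any vehicle given at 0 h, the construction of the Egr1 allele and any pooling of animals are not stated. The labels leave unsaid whether the arrays of a group are separate animals, so the p-values cover only the variation among the arrays at hand, some or all of which could be technical.

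Tight junctions seal the space between neighbouring epithelial cells: claudins form the strands that set which ions and solutes pass, occludin is a further membrane protein of the strands, and the Tjp1 product (ZO-1) ties the strands to actin. Below them, E-cadherin, the product of Cdh1, holds epithelial cells together at adherens junctions, and connexin channels such as that of Gjb2 (connexin 26) pass small molecules directly between cells. In the uterus these proteins belong mainly to the luminal and glandular epithelium, whose cells divide and change shape after estrogen, and Cdh16 (kidney-specific cadherin) is best known from the kidney tubule.

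Values are log2 expression, normalized between arrays by the authors, so a change describes a gene's place among the genes measured with it. Called means a limma adjusted p below 0.05, adjusted over all 14737 genes of a comparison, and changes are given with their standard error. Because the RNA is from bulk tissue, fewer epithelial cells and less RNA per cell cannot be told apart. The Egr1 probe itself was not lower in KO: it lay between 12.24 and 12.51 in WT and between 13.48 and 13.63 in KO at 0 h (KO against WT 1.18 ± 0.18, adjusted p = 0.00302). At 24 h the Egr1 difference was 1.65 ± 0.18 (adjusted p = 1.47e-04). Its place in the gene with respect to the disruption is not stated, so KO and WT below stand for arrays labelled KO and WT. The first WT 0 h array stood apart, correlating with the 24 h arrays at a mean of 0.974, where the remaining 0 h arrays had 0.950 to 0.952. The second KO 0 h array had a mean macrophage marker level of 10.54, against 9.66 on the first. Of 6 uterine markers 5 were tested, and their mean in WT at 0 h was 9.77 to 9.89. The mean of the 14 epithelial markers tested was 10.15 to 10.31 there. Of the uterine markers, Esr1 and Wnt7a were bright (Esr1 11.30 ± 0.09, SD, n = 2, in WT at 0 h), as was the epithelial keratin gene Krt8 (12.46 ± 0.23, SD, n = 2). The epithelial marker Epcam (8.21 ± 0.01, SD, n = 2) lay near the array median of 8.20. So did Foxa2 (8.28 ± 0.19, SD, n = 2), which is in both the gland and the uterine list.

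After E2 the 9 genes did not move as a block. Cldn1 and Tjp1 fell within 3 h in both genotypes and stayed below their 0 h level at 24 h. Cdh16 fell in steps to its lowest level at 24 h. Cldn7 rose at each time, and Gjb2 was far higher at 24 h. Cldn3, Cldn4 and Cdh1 took different courses in WT and KO, and Ocln moved little.

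**Figure D1:**
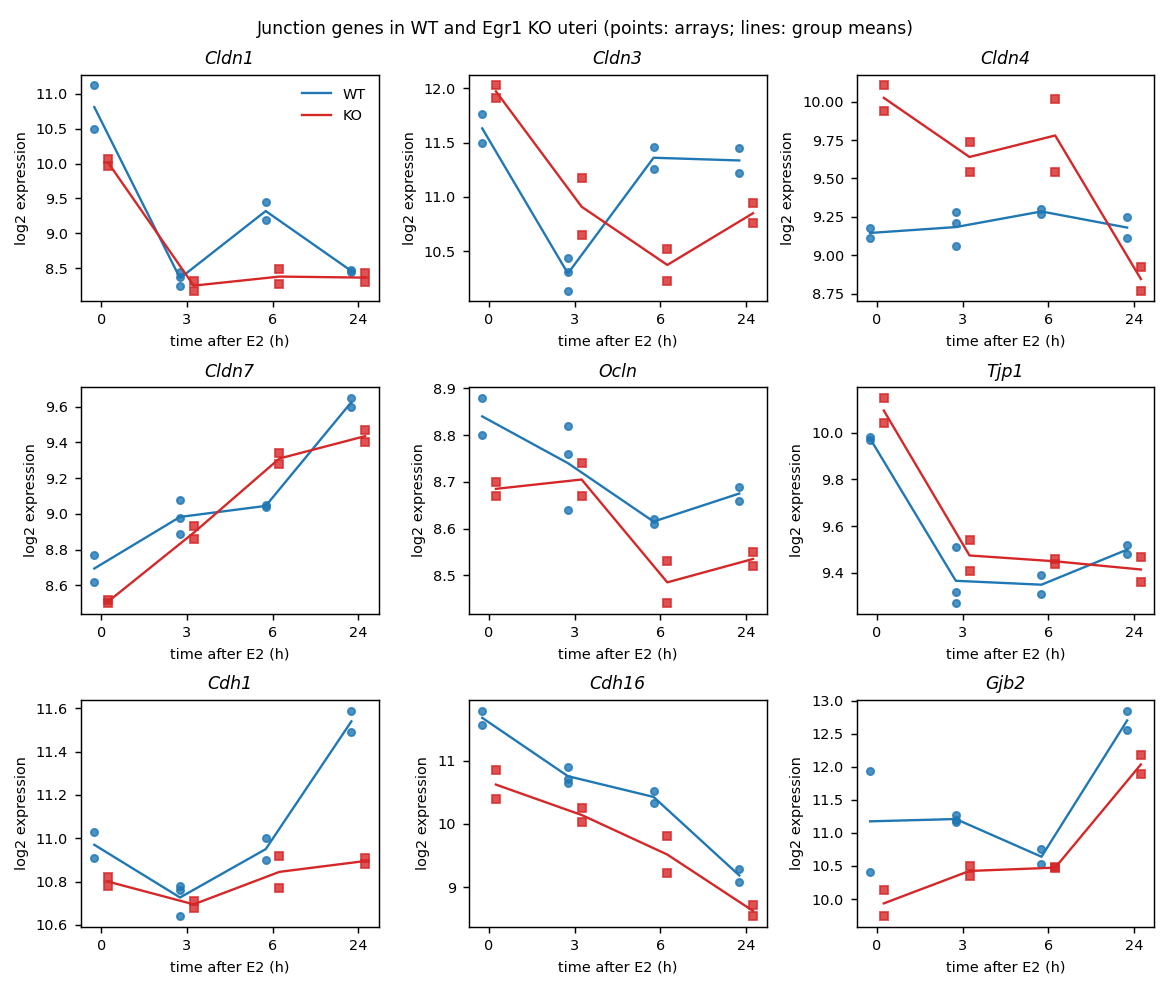
Log2 expression of the 9 junction genes on each of the 17 arrays, plotted by time after E2 (h) for WT and KO, 1 panel a gene. Points are arrays and lines join group means. Cldn1 is highest at 0 h, Gjb2 at 24 h, and Cdh1 is higher in WT than in KO at 24 h.

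In WT, 6 of 9 were called at 3 h, 1 higher and 5 lower, where 46.7% of all genes were called (22.2% higher and 24.5% lower). At 6 h 5 of 9 were called in WT, against 44.0% of all genes. At 24 h 6 of 9 were called, 3 higher and 3 lower, against 37.9% (18.9% higher and 19.0% lower). In KO, 5 of 9 were called at 3 h, 1 higher and 4 lower, against 40.4% of all genes (19.0% higher and 21.4% lower). KO had 6 of 9 called at 6 h, against 44.9%. At 24 h it had 7 of 9, 2 higher and 5 lower, against 45.7% (22.5% higher and 23.1% lower). With so many genes moving in this tissue, shares of this size among 9 genes say little about junction genes as a class. The median change of the 9 genes was -0.24 in WT and -0.38 in KO at 3 h, where the median of all genes was -0.01 in each. At 24 h the medians were -0.16 in WT and -0.68 in KO, where all genes had 0.00. The 3 comparisons of a genotype share its 0 h arrays.

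**Figure D2:**
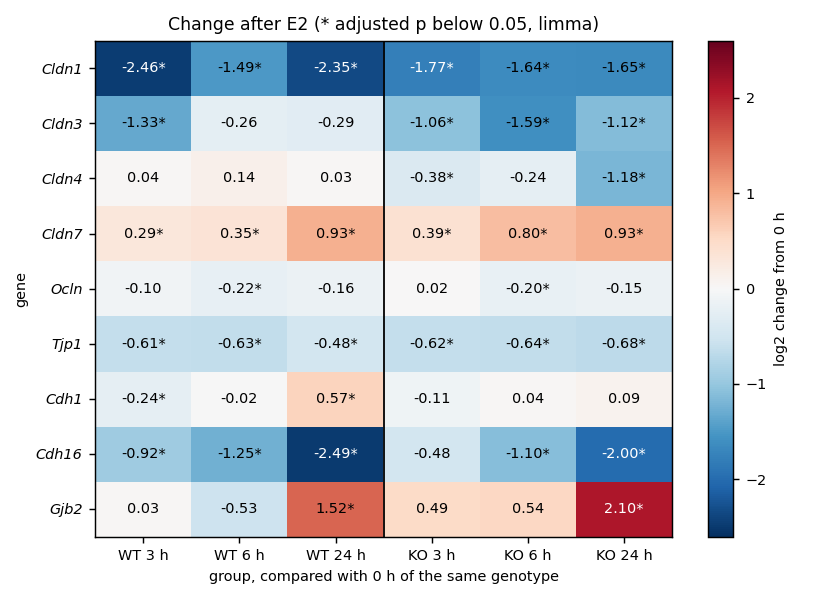
Log2 change of each junction gene (rows) from 0 h to 3, 6 and 24 h in WT and KO (columns), coloured by size and direction. Cldn1, Cldn3, Tjp1 and Cdh16 are lower in every column, though not all of these changes are called, and Cldn7 is higher in every column. Cldn4 at 24 h is at 0.03 in WT and -1.18 in KO. Stars mark called changes.

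The claudins illustrate how unlike the courses were. Cldn3 and Cldn4 encode barrier claudins and both bind a bacterial toxin, the Clostridium perfringens enterotoxin. Cldn3 and Cldn4 are neighbouring coding genes on chromosome 5, yet Cldn3 fell within 3 h in both genotypes while Cldn4 in WT was not called at any time. Promoter windows from RefSeq (GRCm38.p6, 250 bases before to 50 after the start) were available for 7 of the 9 genes, in 9 windows. The windows of 4 claudins are shown because these genes took the 4 different courses described next. Capitals mark matches, on either strand, to 5 short motifs: the GC box GGGCGG, the AP-1 site TGANTCA, 1 arm of the estrogen response element AGGTCA, the E-box CAGGTG and the EGR1 motif GCGNGGGCG.
Cldn3 (GRCm38.p6, chr5:134985964-134986263, plus strand): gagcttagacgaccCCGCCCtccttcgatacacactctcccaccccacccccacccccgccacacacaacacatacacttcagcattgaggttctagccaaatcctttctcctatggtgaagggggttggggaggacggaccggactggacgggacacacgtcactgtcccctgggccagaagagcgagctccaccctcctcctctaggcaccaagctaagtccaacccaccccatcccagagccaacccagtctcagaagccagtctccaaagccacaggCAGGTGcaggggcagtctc
Cldn4 (GRCm38.p6, chr5:134946885-134947184, minus strand): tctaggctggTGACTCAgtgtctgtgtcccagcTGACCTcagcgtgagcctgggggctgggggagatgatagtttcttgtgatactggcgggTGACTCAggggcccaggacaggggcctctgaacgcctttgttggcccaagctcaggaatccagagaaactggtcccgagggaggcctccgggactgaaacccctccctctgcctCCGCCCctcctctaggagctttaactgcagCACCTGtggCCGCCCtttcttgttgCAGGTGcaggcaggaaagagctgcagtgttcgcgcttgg
Cldn1 (GRCm38.p6, chr16:26371790-26372089, minus strand): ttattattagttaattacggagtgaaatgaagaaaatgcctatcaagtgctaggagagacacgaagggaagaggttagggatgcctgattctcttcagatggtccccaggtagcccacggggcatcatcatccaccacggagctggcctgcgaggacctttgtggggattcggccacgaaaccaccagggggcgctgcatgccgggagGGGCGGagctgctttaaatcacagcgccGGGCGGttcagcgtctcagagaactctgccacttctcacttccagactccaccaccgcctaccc
Cldn7 (GRCm38.p6, chr11:69965171-69965470, plus strand): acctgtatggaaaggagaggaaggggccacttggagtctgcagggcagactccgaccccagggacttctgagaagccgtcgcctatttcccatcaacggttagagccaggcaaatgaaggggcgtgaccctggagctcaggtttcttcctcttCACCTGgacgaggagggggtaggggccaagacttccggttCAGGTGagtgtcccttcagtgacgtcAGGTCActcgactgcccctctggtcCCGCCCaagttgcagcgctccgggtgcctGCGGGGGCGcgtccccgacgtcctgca
Of 32851 promoter windows, 35.7% held the GC box, 7.8% the AP-1 site, 16.3% the AGGTCA arm, 20.2% the E-box and 5.6% the EGR1 motif. The Cldn4 window held 2 AP-1 matches, at -240 and -158 from the start, and an AGGTCA arm at -217. It also held GC boxes at -44 and -5 and E-boxes at -14 and 12. The Cldn3 window held a GC box at -236 and an E-box at 32. The Cldn1 window held 2 GC boxes, at -42 and -14. The second of the Cldn7 windows held the EGR1 motif at 24, a GC box at -6, an AGGTCA arm at -31 and E-boxes at -97 and -57. An EGR1 match was also found in a window of Ocln, at -117, and in that of Tjp1, at -49, each overlapping a GC box. The estrogen response element with both arms was sought without the outer base of each arm, as GGTCA and TGACC with any 3 bases between. It was in none of the 9 windows, and in 0.1% of all windows. A match is only a run of letters, and occupancy was not measured.

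Cldn1, whose claudin is needed for the barrier of the skin, had the largest early fall of the 9 genes. Its log2 values in WT were 10.49 and 11.13 at 0 h and 8.45, 8.37 and 8.25 at 3 h. They were 9.45 and 9.19 at 6 h and 8.48 and 8.44 at 24 h. In KO they were 10.06 and 9.97 at 0 h, 8.18 and 8.32 at 3 h, 8.49 and 8.27 at 6 h, and 8.43 and 8.30 at 24 h. Every array taken after E2 was below every 0 h array of its genotype. At 3 h Cldn1 fell in WT (-2.46 ± 0.14, 5.49-fold, adjusted p = 1.57e-08) and in KO (-1.77 ± 0.16, 3.40-fold, adjusted p = 1.12e-06). Between 3 and 6 h Cldn1 rose in WT by 0.97 ± 0.14 (adjusted p = 2.87e-04), and then fell again by 24 h (-0.86 ± 0.16, adjusted p = 5.73e-04). In KO the 3 to 6 h step was 0.13 ± 0.16 (adjusted p = 0.619), with overlapping arrays. At 24 h the Cldn1 change from 0 h was -2.35 ± 0.16 in WT and -1.65 ± 0.16 in KO, with levels close to the array median of 8.20. Its probe was above the array median on 16 of 17 arrays, so the size of its fall may be limited from below.

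Between genotypes Cldn1 was lower in KO at 0 h (-0.80 ± 0.16, adjusted p = 0.0116) and at 6 h (-0.94 ± 0.16, adjusted p = 0.0193). The arrays of the genotypes did not overlap at either time. The 0 h call was lost without the second KO 0 h array (adjusted p = 0.0955), with differences between -1.12 and -0.47 over the arrays left out. The 6 h call was lost when the second KO 6 h array or a WT 6 h array was omitted (adjusted p from 0.0823 to 0.280). At 3 h and at 24 h the differences were -0.11 ± 0.14 and -0.10 ± 0.16 and were not called. The joint test that the time course differed between genotypes gave an adjusted p of 0.0396, and 13 of the 17 single-array omissions took it above 0.05.

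Cldn3 values in WT were 11.50 and 11.76 at 0 h, 10.44, 10.14 and 10.31 at 3 h, 11.46 and 11.26 at 6 h, and 11.22 and 11.45 at 24 h. KO arrays gave 12.03 and 11.91 at 0 h, 10.65 and 11.17 at 3 h, 10.23 and 10.52 at 6 h, and 10.94 and 10.76 at 24 h. In WT the 3 h arrays were the lowest and the later arrays came close to the 0 h level, whereas in KO all 6 arrays after E2 lay below 11.26, the lower WT 6 h array. At 3 h Cldn3 fell in WT (-1.33 ± 0.15, 2.51-fold, adjusted p = 4.67e-06) and in KO (-1.06 ± 0.16, adjusted p = 1.09e-04). From 3 to 6 h it rose by 1.06 ± 0.15 in WT (adjusted p = 1.80e-04), which left it -0.26 ± 0.16 from 0 h (adjusted p = 0.217). In KO it was 3.02-fold lower than at 0 h by 6 h (-1.59 ± 0.16, adjusted p = 2.34e-06) and 2.17-fold lower at 24 h (-1.12 ± 0.16, adjusted p = 5.57e-05). The WT change at 24 h was -0.29 ± 0.16 (adjusted p = 0.194). These calls against 0 h kept an adjusted p of at most 0.00182 whichever single array was left out.

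Set against each other, the genotypes differed in Cldn3 by 0.61 ± 0.15 at 3 h, KO being higher (adjusted p = 0.0356), and by -0.98 ± 0.16 at 6 h, KO being lower (1.98-fold, adjusted p = 0.0175). The 6 h call was lost without either WT 6 h array (adjusted p from 0.0878 to 0.258). The 3 h call was lost when the second KO 3 h array, the second or the third WT 3 h array, or a WT 6 h array was omitted (adjusted p from 0.0502 to 0.327). The KO change minus the WT change was -1.33 ± 0.23 at 6 h (adjusted p = 0.0215) and -0.83 ± 0.23 at 24 h (adjusted p = 0.0436). The 6 h call was lost under 5 of the 17 omissions (adjusted p from 0.0679 to 0.145) and the 24 h call under 12 (from 0.0507 to 0.164). The joint test across times gave an adjusted p of 0.00359, and its highest value with any single array left out was 0.0160.

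Cldn4 in WT lay between 9.06 and 9.30 on all 9 arrays. In KO the values were 9.94 and 10.11 at 0 h, 9.54 and 9.74 at 3 h, 9.54 and 10.02 at 6 h, and 8.92 and 8.77 at 24 h. The KO arrays at 0, 3 and 6 h were all above every WT array, and the KO arrays at 24 h were all below every WT array. In WT the changes from 0 h were 0.04 ± 0.12, 0.14 ± 0.13 and 0.03 ± 0.13 at 3, 6 and 24 h, and none was called. In KO Cldn4 fell by 1.18 ± 0.13 by 24 h (2.26-fold, adjusted p = 4.90e-06), and the step from 6 to 24 h was -0.93 ± 0.13 (adjusted p = 5.49e-05). At 0 h Cldn4 was 1.84-fold higher in KO (0.88 ± 0.13, adjusted p = 0.00217), and at 3 h 1.37-fold higher (0.46 ± 0.12, adjusted p = 0.0438). The 3 h call was lost under 12 of the 17 single-array omissions (adjusted p from 0.0534 to 0.284), and the KO fall at 3 h (-0.38 ± 0.13, adjusted p = 0.0265) under 2, the second KO 0 h and the first KO 3 h array (adjusted p from 0.177 to 0.186). The KO change at 24 h differed from the WT change by -1.21 ± 0.18 (adjusted p = 0.00269), and with any single array left out it stayed between -1.29 and -1.13 with an adjusted p of at most 0.0184.

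Macrophage markers moved in the same arrays as Cldn4. The mean of the 7 macrophage genes tested was 9.66 and 10.54 on the KO 0 h arrays and 9.35 to 9.36 on the WT 0 h arrays, and it was 8.91 to 9.07 in KO at 24 h. All 7 of 7 fell in KO at 24 h, with a median change of -1.07, while limma called 0 of 7 in WT, and 0 of 7 had an unadjusted p below 0.05. Of all genes, 23.1% fell in KO at 24 h, and 37.9% were called in WT. The part of the macrophage markers in the Cldn4 result was not tested. Cd163, a scavenger receptor gene of macrophages, was also among the 3 genes most like Cldn4 over the 17 arrays (r = 0.872).

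Cldn7, a claudin found along the sides of epithelial cells as well as in tight junctions, was the only member called higher at every time in both genotypes. In WT the values were 8.77 and 8.62 at 0 h, 9.08, 8.98 and 8.89 at 3 h, 9.04 and 9.05 at 6 h, and 9.60 and 9.65 at 24 h. KO arrays gave 8.50 and 8.52 at 0 h, 8.86 and 8.93 at 3 h, 9.28 and 9.34 at 6 h, and 9.47 and 9.40 at 24 h. Each group after E2 was above the 0 h arrays of its genotype without overlap. The rise at 24 h was 0.93 ± 0.07 in WT (1.90-fold, adjusted p = 1.12e-06) and 0.93 ± 0.07 in KO (adjusted p = 4.25e-07). In WT the 6 h change was 0.35 ± 0.07 (adjusted p = 8.97e-04) and the 6 to 24 h step 0.58 ± 0.07 (adjusted p = 1.84e-05). In KO the 6 h change was 0.80 ± 0.07 (adjusted p = 6.52e-07) and the 6 to 24 h step was 0.13 ± 0.07 (adjusted p = 0.186). The difference between these 6 h changes was 0.45 ± 0.10 and was not called (adjusted p = 0.0686). The joint test across times was called (adjusted p = 0.0294), but 9 of the 17 single-array omissions took it above 0.05, up to 0.0944.

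Ocln, which encodes occludin, stayed between 8.44 and 8.88 on all arrays. Its probe was dim (mean 8.66, against an array median of 8.20), so the size of its changes may be limited. In WT the values were 8.80 and 8.88 at 0 h, 8.64, 8.82 and 8.76 at 3 h, 8.61 and 8.62 at 6 h, and 8.66 and 8.69 at 24 h. The KO values were 8.67 and 8.70 at 0 h, 8.67 and 8.74 at 3 h, 8.44 and 8.53 at 6 h, and 8.55 and 8.52 at 24 h. Its 0 h and 3 h arrays overlapped in each genotype, and its 6 h arrays lay just below. At 6 h Ocln fell in WT (-0.22 ± 0.06, 1.17-fold, adjusted p = 0.0108) and in KO (-0.20 ± 0.06, adjusted p = 0.0191). The WT call was lost without the second WT 0 h or the first WT 6 h array (adjusted p from 0.0533 to 0.0838). The KO call was lost when the first KO 6 h array or 1 of the KO 0 h arrays was omitted (adjusted p from 0.0554 to 0.139). Fits on the compared groups alone lost both (0.0543 in WT and 0.0611 in KO). No difference between genotypes was called for Ocln at any time.

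Tjp1, the scaffold gene, fell in all 6 comparisons with 0 h. In WT the values were 9.98 and 9.97 at 0 h, 9.32, 9.51 and 9.27 at 3 h, 9.31 and 9.39 at 6 h, and 9.52 and 9.48 at 24 h. The KO values were 10.15 and 10.04 at 0 h, 9.41 and 9.54 at 3 h, 9.44 and 9.46 at 6 h, and 9.36 and 9.47 at 24 h. The highest array after E2, in either genotype, was below the lowest 0 h array by a wide margin compared with the spread within groups. The changes ran from -0.48 ± 0.08 (WT at 24 h, 1.39-fold, adjusted p = 3.18e-04) to -0.68 ± 0.08 (KO at 24 h, 1.60-fold, adjusted p = 8.32e-06). At 3 h the Tjp1 change was -0.61 ± 0.07 in WT and -0.62 ± 0.08 in KO. KO and WT differed by -0.08 to 0.12 at the 4 times, and none of these differences was called. The KO change minus the WT change at 24 h was -0.20 ± 0.11 (adjusted p = 0.319).

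Cdh1, the E-cadherin gene, rose late in WT and was lower in KO than in WT at 24 h. In WT the values were 11.03 and 10.91 at 0 h, 10.78, 10.64 and 10.76 at 3 h, a mean of 10.95 ± 0.07 (SD, n = 2) at 6 h, and 11.59 and 11.49 at 24 h. In KO they were 10.82 and 10.78 at 0 h, 10.71 and 10.68 at 3 h, 10.92 and 10.77 at 6 h, and 10.88 and 10.91 at 24 h. The WT 24 h arrays were above all 15 others, and the 8 KO arrays spanned only 10.68 to 10.92. Cdh1 rose in WT at 24 h by 0.57 ± 0.07 (1.48-fold, adjusted p = 3.95e-05), and the KO change was 0.09 ± 0.07 (adjusted p = 0.347). At 24 h Cdh1 was 1.56-fold lower in KO (-0.65 ± 0.07, adjusted p = 1.41e-04), and the difference stayed between -0.69 and -0.60 with any array left out. The KO change minus the WT change at 24 h was -0.48 ± 0.10 (adjusted p = 0.0147). This last call was lost without the first KO 24 h array (adjusted p = 0.0539) or the first WT 24 h array (adjusted p = 0.0648). A small early fall in WT at 3 h (-0.24 ± 0.06, adjusted p = 0.00638) was lost without the first WT 0 h array (adjusted p = 0.0792).

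Epithelial markers were highest at 24 h, as was Cldn7 in both genotypes and Cdh1 in WT. In KO the epithelial mean rose from 0 h to 24 h, while no change of Cdh1 from 0 h was called. The mean of the 14 epithelial marker genes tested, which hold none of the 9 junction genes, was 10.15 to 10.31 in WT and 10.13 to 10.17 in KO at 0 h. At 24 h it was 10.93 to 10.97 in WT and 10.70 to 10.77 in KO. In WT 11 of 14 rose and 1 fell at 24 h, with a median change of 0.72, and in KO 7 rose and 2 fell, with a median of 0.25. Of all genes, 18.9% rose and 19.0% fell in WT at 24 h, and 22.5% rose and 23.1% fell in KO. KO against WT at 24 h, 1 of 14 markers was higher and 3 were lower, where 8.35% of all genes were called. The part of these markers in the Cdh1 and Cldn7 results was not tested.

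**Figure D3:**
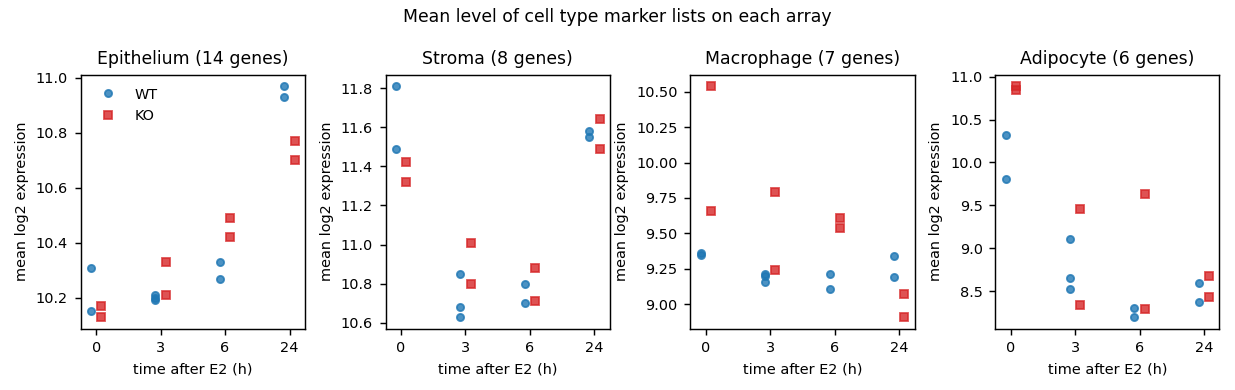
Mean log2 level of the epithelial, stromal, macrophage and adipocyte marker genes on each array by time after E2 (h), for WT and KO. Points are arrays. The epithelial mean is highest at 24 h (10.93 to 10.97 in WT, 10.70 to 10.77 in KO), and 1 KO 0 h array has a macrophage mean of 10.54.

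Cdh16 fell further by 24 h than any other member. In WT the values were 11.56 and 11.79 at 0 h, 10.71, 10.65 and 10.90 at 3 h, 10.52 and 10.33 at 6 h, and 9.08 and 9.29 at 24 h. In KO they were 10.85 and 10.39 at 0 h, 10.25 and 10.03 at 3 h, 9.81 and 9.22 at 6 h, and 8.71 and 8.54 at 24 h. Each later group lay below the earlier groups of its genotype without overlap. At 24 h Cdh16 was 5.61-fold lower than at 0 h in WT (-2.49 ± 0.18, adjusted p = 9.06e-07) and 3.99-fold lower in KO (-2.00 ± 0.18, adjusted p = 1.38e-06). The KO change at 3 h, -0.48 ± 0.18, was not called (adjusted p = 0.0512). Ordered by level, WT at 0 h stood alone at the top, and WT at 3 h, KO at 0 h and WT at 6 h overlapped in turn. KO at 3 h and KO at 6 h came next, KO at 6 h overlapped WT at 24 h, and KO at 24 h stood alone at the bottom.

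At each time the KO arrays had less Cdh16 than the WT arrays, with no overlap. The difference was -1.06 ± 0.18 at 0 h (2.08-fold, adjusted p = 0.00565) and -0.91 ± 0.18 at 6 h (1.88-fold, adjusted p = 0.0419). At 3 and 24 h it was -0.61 ± 0.17 and -0.56 ± 0.18 and was not called (adjusted p 0.0573 and 0.0773). The 3 h difference was called under 6 of the 17 omissions (adjusted p from 0.0183 to 0.0475) and in a fit on the 3 h groups alone (0.0245). The 24 h difference was called when a KO 6 h array was omitted (0.0275), with array weights (0.00672) and in a fit on the 24 h groups alone (0.00263). The 0 h call was lost without the second KO 0 h array (-0.83, adjusted p = 0.0720), and the 6 h call was lost under 9 of the 17 omissions (adjusted p from 0.0573 to 0.350). The change after E2 was not called as different between genotypes (joint test, adjusted p = 0.445). Of 5 kidney tubule markers 2 passed the filter on dim probes. At 0 h in WT Umod, at 8.07 ± 0.02, lay below the array median of 8.20, and Slc12a1, at 8.57 ± 0.06 (SD, n = 2), lay between the median and the upper quartile of 8.87. The mean of the 5 gland markers tested was also lower at 24 h than at 0 h. In WT it went from 9.37 to 9.45 down to 8.94 to 9.01, and in KO from 9.03 to 9.05 down to 8.85 to 8.86. At 24 h 2 of 5 were lower in WT and 1 of 5 in KO, against 19.0% and 23.1% of all genes. The median changes were only -0.09 and -0.01. The gland mean was 9.14 to 9.24 in WT and 8.88 to 8.89 in KO at 3 h. At 6 h it was 9.17 to 9.26 in WT and 8.90 to 9.01 in KO. The part of the gland markers in the Cdh16 result was not tested.

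Gjb2, the connexin 26 gene, rose late. In WT the values were 11.94 and 10.41 at 0 h, 11.19, 11.17 and 11.27 at 3 h, 10.75 and 10.53 at 6 h, and 12.85 and 12.55 at 24 h. KO arrays gave 9.74 and 10.13 at 0 h, 10.50 and 10.35 at 3 h, 10.47 and 10.48 at 6 h, and 12.18 and 11.89 at 24 h. The 24 h arrays were the highest of each genotype, and the WT 0 h arrays were further apart than those of any other group. At 24 h Gjb2 rose by 1.52 ± 0.32 in WT (2.87-fold, adjusted p = 0.00185) and by 2.10 ± 0.32 in KO (4.29-fold, adjusted p = 8.65e-05). From 6 to 24 h the rise was 2.06 ± 0.32 in WT (4.16-fold, adjusted p = 1.59e-04) and 1.56 ± 0.32 in KO (2.95-fold, adjusted p = 0.00141). These 6 to 24 h steps do not use the 0 h arrays.

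The WT 0 h arrays decided the size of some Gjb2 values. With any single array left out, the WT rise at 24 h ranged from 0.76 to 2.28 and remained called, but a fit on the WT 0 h and 24 h groups alone did not call it (adjusted p = 0.0741). The WT change at 3 h was 0.03 ± 0.29 with all arrays, but 0.80 without the first WT 0 h array (adjusted p = 8.08e-04) and -0.73 without the second (adjusted p = 0.00177). Gjb2 was lower in KO at 0 h (-1.24 ± 0.32, adjusted p = 0.0446), but this was -0.48 and not called without the first WT 0 h array (adjusted p = 0.194), and 12 of the 17 omissions took it past 0.05. Without either WT 0 h array Gjb2 was called lower in KO at 3 h (-0.79 with all arrays, adjusted p = 0.00313 without 1) and at 24 h (-0.66 with all arrays, adjusted p = 0.00653 without 1). Without the second WT 0 h array the KO change exceeded the WT change by 1.22 at 3 h, 1.84 at 6 h and 1.34 at 24 h, each called, and the joint test gave an adjusted p of 0.00127, against 0.416 with all arrays. Both other Gjb2 probes rose at 24 h: the first by 1.39 in WT and 1.74 in KO (adjusted p = 7.16e-04 and 6.48e-05), the dimmer one by 0.59 and 0.38 (adjusted p = 3.18e-04 and 0.00495). For KO against WT with all arrays, these probes gave -0.87 and -0.05 at 0 h (adjusted p = 0.0744 and 0.876). At 3 h they gave -0.43 and -0.02 (adjusted p = 0.346 and 0.925). At 24 h they gave -0.52 and -0.25 (adjusted p = 0.273 and 0.137). The other probe of Cdh1 was above the array median on 0 arrays and was called nowhere.

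The steps between later times separated the genes further. From 3 to 6 h in WT 3 of 9 were called, all higher (Cldn1, Cldn3 and Cdh1), against 26.0% of all genes. In KO 4 of 9 were called over the same interval, Cldn7 higher and Cldn3, Ocln and Cdh16 lower, against 23.3%. From 6 to 24 h 5 of 9 were called in WT, against 38.3%, with Cldn7, Cdh1 and Gjb2 higher and Cldn1 and Cdh16 lower. In KO 4 of 9 were called from 6 to 24 h, against 38.3%, with Cldn3 and Gjb2 higher and Cldn4 and Cdh16 lower. Several of these calls rested on single arrays. The KO step of Cldn3 from 3 to 6 h (-0.53 ± 0.16) was lost without the second KO 3 h or the first KO 6 h array (adjusted p from 0.224 to 0.288). Its step from 6 to 24 h (0.48 ± 0.16) was lost without the first KO 6 h or either KO 24 h array (adjusted p from 0.0511 to 0.222). The KO fall of Cdh16 from 3 to 6 h (-0.63 ± 0.18) was lost without the first KO 3 h or the second KO 6 h array (adjusted p from 0.124 to 0.228). The KO fall of Ocln over that interval was lost without the second KO 3 h or the first KO 6 h array (adjusted p from 0.122 to 0.161), and the WT rise of Cdh1 without the second WT 3 h or the first WT 6 h array (adjusted p from 0.0803 to 0.193).

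Differences between genotypes were fewer than changes with time. At 0 h 4 of 9 genes were called, Cldn4 higher in KO and Cldn1, Cdh16 and Gjb2 lower, where 4.43% of all genes were called. At 3 h 2 of 9 were called, Cldn3 and Cldn4, both higher in KO, against 4.23%. At 6 h 3 of 9 were called, Cldn1, Cldn3 and Cdh16, all lower in KO, against 0.631%. At 24 h 1 of 9 was called, Cdh1, against 8.35%. At that time all 9 of 9 were lower in KO with no overlap, as were 29.6% of all genes. Array weights called 7 of 9 at 24 h (22.0% of all genes), leaving out Cldn1 and Tjp1, and a fit on the 24 h groups alone called 6 of 9 (20.7%), leaving out Ocln too. The count at 24 h therefore depended on the fit, and Cdh1 was called in all 3 fits. Of these 10 calls, the Cldn4 difference at 0 h and the Cdh1 difference at 24 h were called with any single array left out. In a fit on the 0 h groups alone, which called 0.0543% of all genes, all 4 calls at 0 h were lost: Cldn4 (adjusted p = 0.0649), Cdh16 (0.135), Cldn1 (0.261) and Gjb2 (0.411). A fit on the 6 h groups alone lost all 3 calls at 6 h: Cldn1 (adjusted p = 0.0804), Cldn3 (0.0804) and Cdh16 (0.178). The Cldn3 call at 3 h was lost in a fit on the 3 h groups alone (0.0837). The count of 10 fell to 6 without the second WT 3 h array and to 4 without either WT 6 h array.

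**Figure D4:**
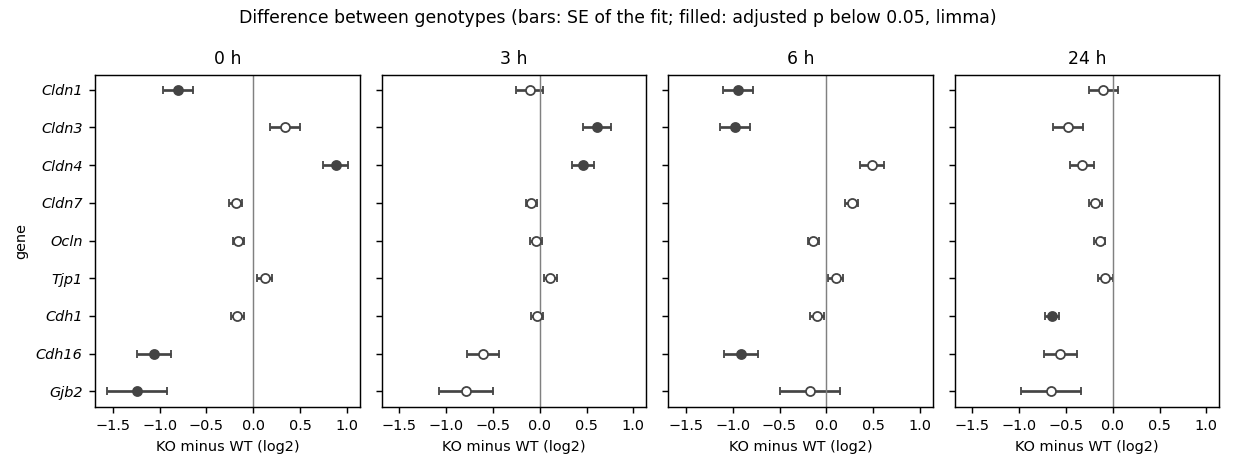
Difference between KO and WT (log2, KO minus WT, with the standard error) for each junction gene at each time after E2 (panels, from 0 h to 24 h). Cldn4 is above 0 at 0 h (0.88), and Cdh1 is at -0.65 at 24 h with a standard error of 0.07.

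The KO and WT changes from 0 h were also compared directly. At 3 h 0 of 9 genes were called, where limma called 1.09% of all genes, and 2 of 9 had an unadjusted p below 0.05. At 6 h 1 of 9 was called, Cldn3, against 0.400%. At 24 h 3 of 9 were called, Cldn3, Cldn4 and Cdh1, all with the lower change in KO, against 7.27%. The joint test over the 3 times called 5 of 9, Cldn1, Cldn3, Cldn4, Cldn7 and Cdh1, against 6.83% of all genes. Left out 1 at a time, the arrays gave between 2 and 6 of 9. The count was 2 without any 1 of the 4 arrays taken at 24 h, and 3 when a KO 0 h array, the second KO 6 h array or a WT 6 h array was omitted. All interaction tests share the 0 h arrays.

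Other junction genes gave mixed pictures within each class, and their counts are to be read beside the shares of all genes called. At 24 h these shares were 18.9% higher and 19.0% lower in WT, and 22.5% higher and 23.1% lower in KO. Of 12 other claudins tested, 2 rose and 3 fell in WT at 24 h, and 0 rose and 3 fell in KO. Cldn5, the endothelial claudin, fell at every time, with a 24 h change of -1.66 in WT (adjusted p = 1.37e-05) and -2.35 in KO (adjusted p = 4.79e-07). Cldn10 fell at 24 h in WT (-0.87, adjusted p = 4.56e-04) and in KO (-1.51, adjusted p = 2.38e-06). Cldn2, a claudin that forms cation channels, rose at 24 h in WT (0.82, adjusted p = 4.69e-04), and its KO change was -0.06 (adjusted p = 0.807). The difference between the Cldn2 changes was -0.87 (adjusted p = 0.0204). Cldn23 rose at 24 h in WT by 0.70 (adjusted p = 1.36e-04), and its KO change was -0.07 (adjusted p = 0.664), a difference of -0.77 (adjusted p = 0.00862). Cldn23 was already higher in KO at 0 h (10.86 ± 0.02 against 10.13 ± 0.02, SD, n = 2 each), and its levels at 24 h were 10.79 ± 0.21 in KO and 10.83 ± 0.12 in WT.

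Of 19 further tight junction scaffolds and partners, 3 rose and 3 fell in WT at 24 h, and 3 rose and 7 fell in KO. Tjp3 (ZO-3), a relative of Tjp1, rose at 24 h, by 0.68 in WT (adjusted p = 1.28e-05) and by 0.54 in KO (adjusted p = 3.38e-05), opposite to the fall of Tjp1. Marveld3, a relative of occludin, rose at 24 h in WT by 0.60 (adjusted p = 8.77e-05) and was lower in KO than in WT at that time (-0.39, adjusted p = 0.0105). Amotl1 (angiomotin-like 1) rose at 3 h by 1.47 in WT (adjusted p = 8.90e-08) and by 1.20 in KO (adjusted p = 2.31e-06).

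Of 15 other adherens junction genes, 5 rose and 5 fell in WT at 3 h, and 3 rose and 2 fell in KO. Of all genes at 3 h, 22.2% rose and 24.5% fell in WT, and 19.0% rose and 21.4% fell in KO. Cdh3 (P-cadherin), the gene next to Cdh1, rose in WT at 3 h by 0.84 (adjusted p = 8.59e-07) and at 6 h by 1.18 (adjusted p = 1.77e-07), when Cdh1 was not higher. In KO the Cdh3 change at 3 h was 0.22 (adjusted p = 0.0510), and the KO change minus the WT change was -0.61 (adjusted p = 0.0241). At 0 h Cdh3 was 8.98 ± 0.11 in KO and 8.70 ± 0.07 in WT (SD, n = 2 each), so part of the difference between the changes came from 0 h. Vcl, which encodes the actin-linking protein vinculin, fell in KO at 24 h by 0.50 (adjusted p = 7.79e-06), and its WT change was 0.12 (adjusted p = 0.132), a difference of -0.61 (adjusted p = 0.00124). Vcl was already higher in KO at 0 h (13.09 ± 0.02 against 12.72 ± 0.02, SD, n = 2 each), and its means at 24 h were 12.59 in KO and 12.84 in WT. Of 8 desmosome genes, 3 rose and 0 fell in WT at 24 h, and 2 rose and 1 fell in KO. The desmosomal cadherin gene Dsg2 rose by 0.50 in WT (adjusted p = 4.93e-04) and by 0.75 in KO (adjusted p = 8.54e-06). Of 8 other gap junction genes, 1 rose and 1 fell at 24 h in each genotype. Gja1, the main connexin of uterine muscle, rose at 6 h in WT by 0.98 (adjusted p = 1.22e-05) and in KO by 0.85 (adjusted p = 3.65e-05), when Gjb2 was not called.

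Of 14 regulators of epithelial junction genes, 5 rose and 3 fell in WT at 24 h, and 5 rose and 1 fell in KO. Snai1 (Snail), a repressor known to act on Cdh1, fell in WT at 24 h by 1.09 (adjusted p = 1.33e-06), while its KO change was 0.12 (adjusted p = 0.309). The KO change of Snai1 minus the WT change was 1.20 (adjusted p = 2.40e-04), and KO exceeded WT at 24 h by 0.36 (adjusted p = 0.0159). At 0 h Snai1 was lower in KO (9.38 ± 0.08 against 10.21 ± 0.16, SD, n = 2 each, adjusted p = 1.78e-04), which makes up most of the difference between the changes. Twist2 rose at 3 h in both genotypes, by 2.37 in WT (adjusted p = 1.06e-08) and by 2.26 in KO (adjusted p = 6.68e-08). Esrp2, an epithelial splicing regulator, rose at 24 h by 0.96 in WT (adjusted p = 1.87e-05) and by 0.60 in KO (adjusted p = 3.76e-04). Esrp2 was lower in KO than in WT at that time (-0.61, adjusted p = 0.00426).

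The course of each gene was compared with those of all genes tested by Pearson correlation over the 17 arrays, as a description, since arrays of 8 groups share their treatment. Cldn1 was most like Trmt1l (r = 0.977), Col8a1 (0.969) and Acot1 (0.959). The genes most like Cldn7 were Plpp2 (0.968), Bace2 (0.966) and Pglyrp1 (0.960). Tjp1 was most like C130074G19Rik (0.974), Ankzf1 (0.965) and Oxr1 (0.961). For Cdh1 they were Catsperz (0.950), Timd2 (0.943) and Arl14 (0.939), and for Cdh16 Lrrc49 (0.940), Zfp317 (0.931) and Vwa2 (0.925). Gjb2 was most like Tmem119 (0.956), Fut8 (0.949) and Dbf4 (0.943). Likeness was weaker for Cldn3, with Cd14 (0.887), Odr4 (0.884) and Lztr1 (0.883), for Cldn4, with Napsa (0.886), Xdh (0.875) and Cd163, and for Ocln, with Iah1 (0.867), Mme (0.866) and Kdm6a (0.847). Among the 9 genes themselves the correlations ran from -0.82 for Cldn7 and Cdh16 to 0.81 for Cldn1 and Tjp1.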

How the data were processed

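The arrays were Illumina MouseWG-6 v2 bead arrays, scanned values coming from BeadStudio, per the submitters' processing notes. The authors deposited quantile-normalized log2 values, as the table shows: its 17 columns have the same distribution, with a median of 8.20 and a range of 7.39 to 15.94. The background correction and log offset were not given in the sources used here, and a floor can compress changes of dim probes. No depth applies, and the number of arrays limits the precision. Of 45281 probes the platform annotation gave 34885 a single symbol, 18 several, and left 10378 unlisted. A probe had to exceed the array median on at least 2 arrays, and the brightest probe stood for its gene. The 8 group means were fitted with limma 3.58.1 in R 4.3.3 (residual degrees of freedom 9, prior 4.56), two-sided, with the Benjamini-Hochberg adjustment over 14737 genes in each comparison. The fit was checked on simulated data. The array has no stated genome build. The members and all lists were chosen with earlier results of these data known. Named besides the 9 members were the 3 genes most like each, and, of each junction list, up to 4 members with the largest called change at 24 h and up to 2 in other comparisons. Umod and Slc12a1 were named as those tested of a list of 5 kidney tubule markers. The markers Esr1, Wnt7a, Krt8, Epcam and Foxa2 were named for their level, outside this rule, and chosen after their values were seen. The alternatives tried were other probe filters, other probes, an intensity trend, array weights, fits on the compared groups alone, a replicate block and leaving out each array.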

Additional observations from a re-analysis of the deposited data

Results flagged for a closer look

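These 9 results stood out because the change after E2 differed between KO and WT by a test of the difference itself. For Cldn3 the KO change minus the WT change was -1.33 at 6 h and -0.83 at 24 h (log2), and the joint limma test over the 3 times gave an adjusted p of 0.00359. The 6 h value was lost when 1 of the KO 0 h arrays, 1 of the WT 6 h arrays or the first WT 0 h array was omitted (adjusted p from 0.0679 to 0.145), and the 24 h value under 12 of the 17 omissions (adjusted p from 0.0507 to 0.164). A fit on the compared groups alone lost the 6 h value (0.0978). For Cldn4 the difference was -1.21 at 24 h, with a joint adjusted p of 0.00871, which rose to 0.0504 and 0.0537 without the second array of KO 24 h or of WT 24 h. Much of this Cldn4 difference came from 0 h, where KO exceeded WT by 0.88, a call lost in a fit on the 0 h groups alone (adjusted p = 0.0649). At 24 h KO against WT was -0.33 and was not called (adjusted p = 0.139). For Cdh1 the difference was -0.48 at 24 h and the joint adjusted p 0.00871, which was 0.0507 and 0.0577 without the first KO 24 h or the first WT 24 h array. Cldn7 (joint adjusted p = 0.0294) and Cldn1 (joint adjusted p = 0.0396) were called by the joint test, and with all arrays at no single time. Without the first WT 0 h array the Cldn1 difference was called at 3 h (1.01, adjusted p = 0.0112) and at 24 h (1.02, adjusted p = 0.00412), and array weights called it at 24 h (0.70, adjusted p = 0.0262). Omitting the second WT 0 h array gave a called Cldn7 difference at 6 h (0.53, adjusted p = 0.0161).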

How the results depend on the processing

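Of 162 results (9 genes in 18 comparisons), 70 were called, and 44 of these were called under all 26 alternatives. The other 26 lost the call under at least 1 alternative, 30 uncalled results were called under at least 1, and 1 reversed: Gjb2 in WT at 3 h against 0 h, which ranged from -0.73 to 0.80 when arrays were left out. An uncalled value that changed sign without being called was not counted as reversed. Fits on the compared groups alone lost 15 calls and gained 12, array weights lost 5 and gained 10, and the probe filters, probe choices and intensity trend each lost at most 1. The fit on compared groups alone gave no joint test, which needs all groups. When arrays were left out, calls against 0 h ranged from 16 to 18 of 27 in WT (17 with all arrays) and from 17 to 21 of 27 in KO (18). Calls between genotypes ranged from 4 to 14 of 36 (10), joint interaction calls from 2 to 6 of 9 (5), and calls of the later steps from 14 to 17 of 36 (16). With the replicate number as a block the same counts were 18, 19, 8, 4 and 16, and with the letter in the titles as a block 17, 18, 7, 4 and 14; the replicate block also lost the Cldn3 difference of changes at 24 h (adjusted p = 0.0642). The replicate numbers did not mark shared animals in the labels. Deviations of same-numbered arrays from their group means correlated at r from -0.195 to 0.305 over 56 pairs (median -0.001), with 11 pairs above 0.1. These pairs are not independent, since the deviations of the arrays in a group of 2 mirror each other. With 2 or 3 arrays a group, 1 array can decide a call, and dim probes such as that of Cldn1 have little room to fall.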

Other observations

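Markers of cell types other than epithelium also moved with time after E2. Of all genes, 24.5% fell at 3 h in WT and 21.4% in KO. At 24 h 18.9% rose and 19.0% fell in WT, and 22.5% rose and 23.1% fell in KO. Of 6 adipocyte markers, 6 fell at 3 h in WT (median change -1.34) and 6 fell in KO (-2.51), and the KO arrays differed among themselves, at 8.34 and 9.46 at 3 h and 8.29 and 9.63 at 6 h. Of 8 stromal markers, 7 fell at 3 h in WT and 6 in KO, and their mean was 11.49 to 11.64 at 24 h. Of 8 endothelial markers, 5 fell at 24 h in WT and 4 in KO, and the endothelial cadherin Cdh5 fell by 1.03 in WT (adjusted p = 1.03e-06) and by 0.67 in KO (adjusted p = 7.05e-06). Of 8 smooth muscle markers, 3 rose and 1 fell in WT at 24 h, and 0 rose and 2 fell in KO. No explanation of these movements was tested.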
